A study of Mus musculus with 30 samples.

Results

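The neuronal basic helix-loop-helix (bHLH) factors Neurod1, Neurod2, Neurod4, Neurod6, Neurog1, Neurog2 and Bhlhe22 were followed in mouse cortex with and without Tbr1. The 7 genes were chosen by family and with the rise of Neurod1 in knockout P0.5 cortex already known. Each was represented by the probe set that named it alone and, where a gene had several, by the one with the highest mean. This gave 6 members among the 16553 genes measured at both stages, and Bhlhe22 was not analysed here. At E14.5 the table held 2 probe sets for Neurod1, 3 for Neurod2, 3 for Neurod4, 2 for Neurog1 and 1 each for Neurod6 and Neurog2, while at P0.5 each member had 1.

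RNA was hybridised to 30 Affymetrix arrays. At E14.5, neocortex of Tbr1 -/- (KO, 3 arrays) and wild-type (WT, 3 arrays) embryos was profiled, and newborn (P0.5) brain tissue of both genotypes was profiled in frontal, parietal and occipital pieces, with 4 arrays for each region and genotype. Both genotypes came from crosses of Tbr1 heterozygotes kept on a CD1 background, and the labels name no tissue-specific driver of the Tbr1 deletion. It is not stated whether a number marks the same animal in each region or whether tissue was pooled, so p-values measure only the spread between these samples. By the Y-linked signals given below, no KO number marked the same animals in all 3 regions. Values are log2 signals, on which a difference of 1 is a doubling, and they are compared only between arrays of the same stage for the same gene.

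Neuronal bHLH proteins bind the E-box sequence CANNTG as dimers with the widely expressed E proteins. In the cortex Neurog1 and Neurog2 are proneural factors of progenitors in the ventricular zone, where they start the glutamatergic programme and are themselves repressed by Notch signalling through Hes proteins. Neurod1 and Neurod4 act further along, in intermediate progenitors and newly born neurons, and Neurod2 and Neurod6 are kept by maturing glutamatergic neurons. Tbr1, a T-box transcription factor, is made by early-born postmitotic neurons of the same lineage, largely those of layer 6.

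The RefSeq promoter windows of the 3 members on which the P0.5 results turn are shown because Tbr1 belongs to the T-box family and because bHLH factors can act on each other's genes. Each line gives the 250 bases before the gene's start, 5′ to 3′ in the direction of transcription, on the GRCm38.p6 build. Capitals mark the E-box (CANNTG) and the T-box core (AGGTGT, or ACACCT on the other strand).
Neurod1, chr2:79456637-79456886 (minus strand): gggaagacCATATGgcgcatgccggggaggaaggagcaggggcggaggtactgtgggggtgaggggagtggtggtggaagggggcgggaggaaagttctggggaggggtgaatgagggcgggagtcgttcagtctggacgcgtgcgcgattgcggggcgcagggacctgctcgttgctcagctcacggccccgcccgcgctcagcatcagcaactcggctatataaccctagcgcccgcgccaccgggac
Neurod6, chr6:55681264-55681513 (minus strand): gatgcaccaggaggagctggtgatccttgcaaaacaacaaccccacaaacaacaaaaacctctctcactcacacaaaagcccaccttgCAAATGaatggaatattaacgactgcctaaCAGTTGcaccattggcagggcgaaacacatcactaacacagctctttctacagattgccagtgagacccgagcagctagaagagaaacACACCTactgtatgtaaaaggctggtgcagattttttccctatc
Neurod2, chr11:98329646-98329895 (minus strand): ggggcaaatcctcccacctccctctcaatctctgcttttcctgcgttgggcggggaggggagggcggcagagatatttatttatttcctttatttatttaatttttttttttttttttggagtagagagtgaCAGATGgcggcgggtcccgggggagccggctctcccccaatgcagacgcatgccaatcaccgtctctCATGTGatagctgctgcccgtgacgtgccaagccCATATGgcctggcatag
The Neurod1 window held 1 E-box, 242 bases before the start, and no T-box core. The Neurod6 window held 2 E-boxes, 162 and 132 bases before the start, and 1 T-box core 44 bases before it, which overlapped no E-box. The Neurod2 window held 3 E-boxes, at 118, 51 and 17 bases, and no T-box core. In the Neurod4 window there was 1 T-box core and no E-box, and neither motif was found in the windows of Neurog1 and Neurog2. Of all 32851 promoter windows of this length, 66.2% held at least 1 E-box and 11.8% a T-box core. A match is a description of these letters, not a binding site.

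Tbr1 was read first as a check of the labels. At E14.5 its log2 signal was 8.69, 7.23 and 7.57 in the KO arrays and 9.36, 8.89 and 9.11 in the WT arrays. The groups did not overlap, and the difference of −1.29 (SE 0.368) was not called at an adjusted p of 0.85 (limma). At P0.5 the difference was −0.63 (SE 0.124, adjusted p = 0.00189) in frontal, −0.58 (adjusted p = 0.00887) in parietal and −0.84 (adjusted p = 0.000293) in occipital tissue, with no overlap in any region. A Tbr1 signal remained in every KO array. Which exons the mutation removes is not given in the sources used here, so the probe set may lie outside them.

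Medians over all probe sets differed little between arrays of a stage (5.12 to 5.15, then 7.42 to 7.52). The array farthest from the others of its group was KO 1 at E14.5 and WT frontal 4 at P0.5. Y-linked signal differed between the genotypes in frontal P0.5 tissue: the mean signal of 3 Y-linked genes (Eif2s3y, Kdm5d and Uty) was 5.09 to 5.99 in KO frontal arrays and 8.99 to 9.15 in WT frontal arrays. In parietal tissue 2 KO arrays and 1 WT array lay on the low side, and in occipital tissue 1 KO array did. Calls for KO against WT in frontal tissue are therefore given with the Y-linked mean as a covariate as well. The slope of this covariate rests mainly on parietal and occipital arrays, since no frontal arrays of different genotype shared a Y-linked level. It therefore cannot separate sex from genotype in frontal tissue. Every KO frontal array also had a signal of 11.96 or more for the sex-linked gene Xist, and no WT frontal array exceeded 6.39. By both signals the KO frontal arrays were female and the WT frontal arrays male. Sex and genotype thus coincided there, and each frontal KO minus WT difference is also one of female minus male. The part of sex in these frontal differences was not tested. For Tbr1 the frontal difference with this covariate was −0.72 (adjusted p = 0.0305, limma). Member interactions and the genes most like Neurod1 are given without it.

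At E14.5 none of the 6 members passed the test for KO against WT. The same held for all 18194 genes of that stage, of which 0% were called. At an unadjusted p under 0.05, 1048 genes passed, and a fit with array weights called 2. Leaving out 1 array gave 0 calls in 4 of 6 fits, 2 without KO 1 and 30 without KO 3. On simulated E14.5 data with independent normal noise, the same fit recovered 60 of 100 genes changed by 1 on the log2 scale and 11 of 100 changed by 0.5. In that setting a change of the smaller size was mostly not detected. Same-numbered arrays had correlated deviations in the real data, which the simulation lacked, so these rates may not hold for them. At E14.5 Xist was at 9.58, 10.17 and 5.07 in KO and at 5.01, 10.76 and 5.41 in WT arrays. Sex-linked signal was thus not matched between the groups or within array number 1, and no sex-linked covariate was fitted at this stage.

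Neither proneural gene passed the test at E14.5. Neurog2 had log2 signals of 11.05, 11.12 and 11.18 in KO and 11.26, 11.14 and 10.79 in WT arrays. The KO values lay within the range of the WT values, and the difference was 0.05 (95% interval −0.30 to 0.40, adjusted p = 0.977). Neurog1 was at 8.11, 8.29 and 7.83 in KO and at 8.24, 8.51 and 7.19 in WT arrays, with a difference of 0.10 (95% interval −0.71 to 0.91, adjusted p = 0.981). WT array 3 was the lowest of the 6 for both proneural genes.

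Neurod1 at E14.5 had log2 signals of 7.70, 7.41 and 7.68 in KO and 8.05, 7.72 and 7.37 in WT arrays. The 2 groups overlapped. The difference of −0.12 (SE 0.22, 95% interval −0.63 to 0.40) was not called at an adjusted p of 0.968, and the second Neurod1 probe set gave −0.20 (SE 0.293, adjusted p = 0.95). Neurod4 was among the dimmest 30% of genes at E14.5, with 3.99 to 4.12 in KO and 4.06 to 4.17 in WT arrays.

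The factors of maturing neurons, Neurod6 and Neurod2, had the most negative KO minus WT differences of the 6 members at E14.5. Neurod6 was at 8.44, 8.02 and 8.70 in KO arrays and at 9.99, 8.71 and 9.35 in WT arrays. All 3 KO values lay below all 3 WT values, the nearest of them by a small margin. The difference was −0.96 (SE 0.339, 1.95-fold, 95% interval −1.75 to −0.17) with an unadjusted p of 0.0236 and an adjusted p of 0.858 (limma), so it was not called. Of all genes, 3.74% were lower in KO with no overlap at this stage. Neurod2 was at 10.15, 8.86 and 9.69 in KO and at 10.58, 9.82 and 9.99 in WT arrays, which overlapped, with a difference of −0.57 (SE 0.35, adjusted p = 0.915). Same-numbered arrays may be paired at this stage, and within the 3 pairs Neurod2 differed by −0.43, −0.97 and −0.31 and Neurod6 by −1.54, −0.69 and −0.65. With the number as a block the adjusted p was 0.583 for Neurod2 and 0.568 for Neurod6, so neither was called. The second Neurod2 probe set gave −0.43 (SE 0.315, adjusted p = 0.902), and the third, dim one −0.02.

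Markers of several cell types differed in mean between the KO and WT arrays at E14.5, though no gene of any list was called. The 4 measured markers of cortical glutamatergic neurons had a mean of 7.41 to 7.68 in KO and 7.87 to 8.20 in WT arrays, with no overlap. Of single genes, 3.74% were lower in KO with no overlap, and a share for list means was not computed. Among genes downstream of the proneural factors, Dcx, which binds the microtubules of migrating neurons, differed by −1.45 and Elavl4, a neuronal RNA-binding protein, by −0.98, each with an adjusted p of 0.85. All 8 GABAergic interneuron markers were lower in KO too, by −0.64 to −0.16 each. Their means, 6.11 to 8.03 in KO and 7.39 to 8.39 in WT arrays, overlapped. Markers of some other tissues went the opposite way. The mean of 3 meningeal markers was 6.90 to 8.82 in KO and 6.47 to 6.64 in WT arrays, and that of 4 thalamic markers 6.21 to 8.22 and 5.72 to 6.09, both with no overlap. The share of genes or list means higher in KO with no overlap is not given here. The 4 microglial markers differed by 0.42 to 0.57 each, and their means, 6.97 to 7.75 in KO and 6.68 to 7.05 in WT arrays, overlapped. The part of these tissues in the Neurod2 and Neurod6 differences was not tested. In bulk tissue, fewer cells of a type and less RNA per cell cannot be told apart.

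**Figure D1:**
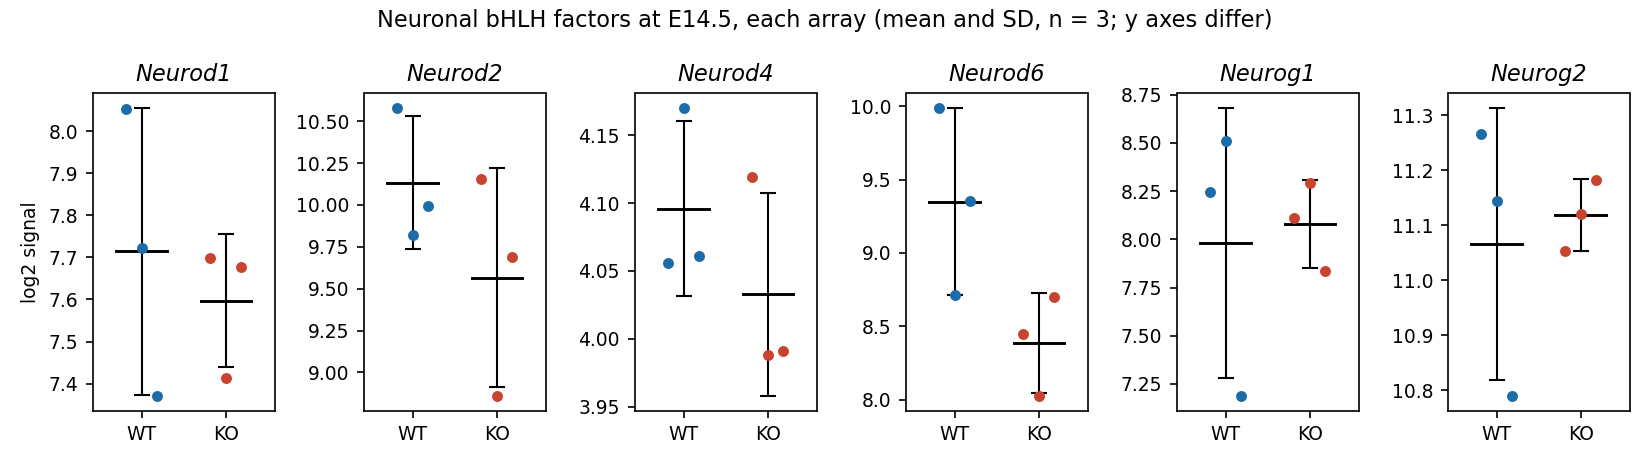
Log2 signal (vertical axis) of the 6 bHLH members in each E14.5 array, KO in red and WT in blue, with a bar at each group mean, error bars of 1 SD and a vertical scale of its own for each gene. The Neurod6 values of the 3 KO arrays lie below those of the 3 WT arrays, and the groups of the other 5 members overlap.

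At P0.5 the members went different ways. Neurod1 had a higher mean in KO tissue of every region, Neurod6 had a lower one, and the other 4 members did not pass the test in any region. Neurod1 was chosen with its rise known, so its P0.5 values are given as a description, with no test.

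In frontal tissue, Neurod1 had log2 signals of 9.09, 9.44, 9.33 and 9.30 in KO and 8.65, 7.57, 6.92 and 7.10 in WT arrays. The KO arrays were close together and all above the WT arrays, which spread widely, with WT 1 nearest the KO values. The mean difference was 1.73 (SE 0.273, 3.32-fold), place 4 of 19938 genes from the top. Of all genes, 6.42% were higher in KO frontal tissue with no overlap. Without WT frontal 1 the difference was 2.09.

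In parietal tissue, Neurod1 was at 9.01, 9.50, 8.74 and 9.18 in KO and at 7.22, 7.68, 8.20 and 7.54 in WT arrays. The groups did not overlap, and the difference was 1.45 (2.73-fold), again at place 4 from the top. Of all genes, 3.68% were higher in KO parietal tissue with no overlap. In occipital tissue, KO arrays gave 9.40, 8.58, 8.80 and 8.56 and WT arrays 8.10, 8.52, 9.04 and 8.17. Here the groups overlapped, and the difference was 0.38 (1.30-fold), place 251 from the top. Leaving out each occipital array in turn moved it between 0.19 and 0.57.

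Averaged over the 3 regions by genotype and array number, Neurod1 was at 9.16, 9.17, 8.96 and 9.02 in KO and at 7.99, 7.92, 8.05 and 7.60 in WT. The groups did not overlap, as for 7.21% of all genes in this direction, and the difference of 1.19 (2.27-fold) was at place 8 of 19938. Arrays with a high Y-linked level alone gave 1.22 in parietal and 0.39 in occipital tissue. This left out 2 KO arrays and 1 WT array in parietal and 1 KO array in occipital tissue. Of the arrays kept, KO parietal 1 and 3, WT parietal 3 and KO occipital 2 and 4 also had an Xist signal of 7.75 to 8.77. Xist was at 5.65 to 6.39 in WT frontal arrays and at 11.96 to 12.20 in KO frontal arrays. The restricted comparison is therefore not one of arrays alike in both signals. All KO frontal arrays had a low Y-linked level, but KO parietal 1 and 3 and KO occipital 2 and 4 a high one. No KO number therefore marked the same animals in all 3 regions. With the Y-linked mean as a covariate the frontal difference was 1.60, although no frontal arrays of different genotype shared a Y-linked level.

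**Figure D2:**
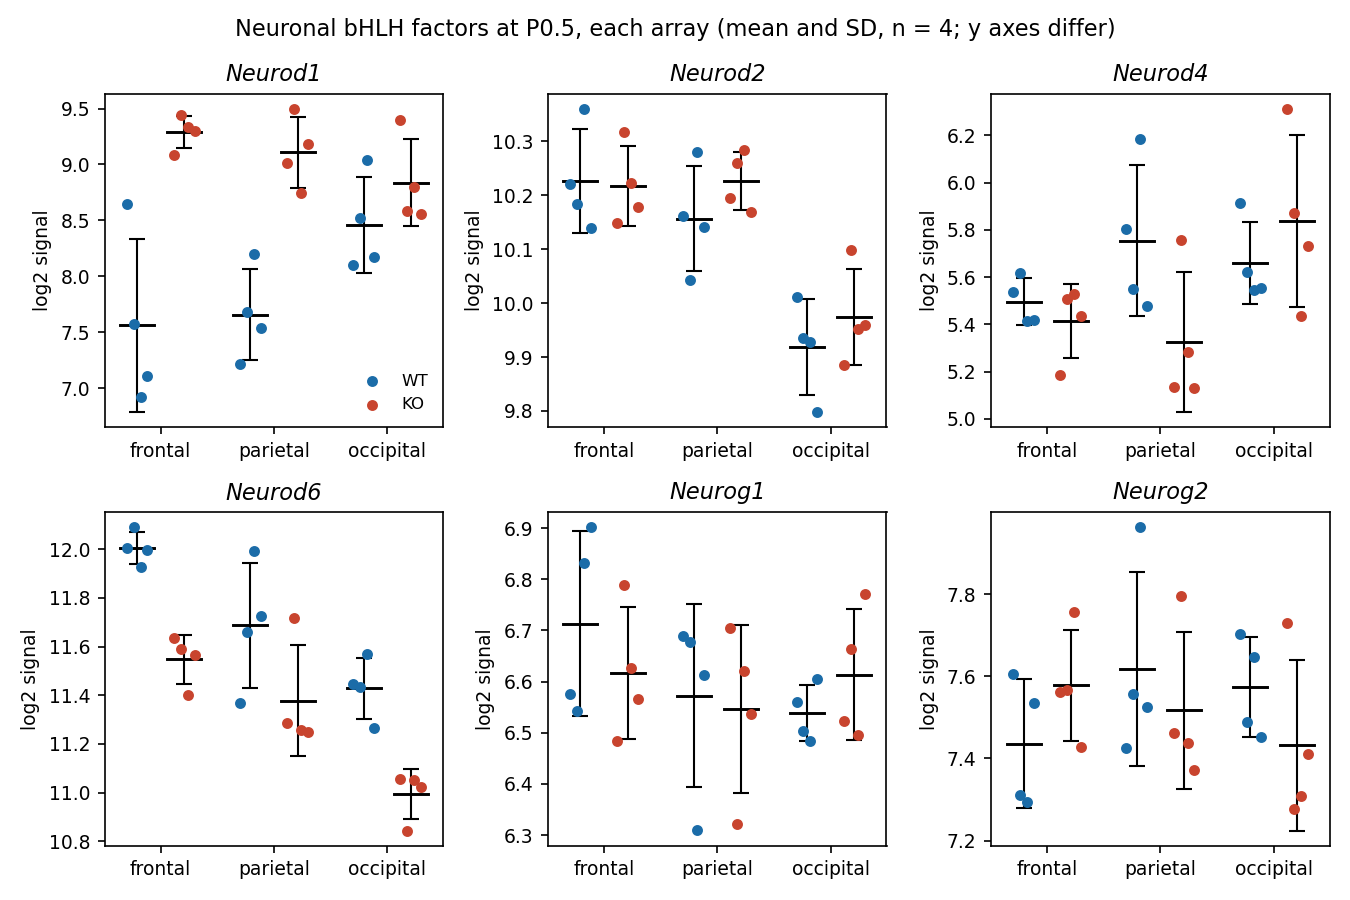
Log2 signal (vertical axis) of the 6 members in each of the 24 P0.5 arrays, by region and genotype, KO in red and WT in blue, with a bar at each group mean, error bars of 1 SD and a vertical scale of its own for each gene. Neurod1 is higher in KO with no overlap in frontal and parietal tissue, and Neurod6 is lower in KO with no overlap in frontal and occipital tissue.

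Neurod6, a factor of maturing upper- and deep-layer neurons that supports callosal axon growth together with Neurod2, was lower in KO frontal tissue. KO arrays gave log2 signals of 11.63, 11.59, 11.40 and 11.57 and WT arrays 12.00, 12.09, 11.93 and 12.00. Every KO value lay below every WT value, which was so for 6.5% of all genes. The difference of −0.46 (SE 0.104, 1.37-fold) had an adjusted p of 0.00626 (limma). It was the only one of the 5 relatives of Neurod1 called there, where 7.52% of all genes were called in either direction and 2.81% as lower. With the Y-linked mean as a covariate the difference was −0.55 (SE 0.141) and its adjusted p 0.0545.

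In occipital tissue Neurod6 was at 11.06, 10.84, 11.05 and 11.02 in KO and at 11.45, 11.43, 11.57 and 11.26 in WT arrays, again with no overlap (2.5% of all genes, lower in KO). It fell by 0.43 (SE 0.104, 1.35-fold, adjusted p = 0.0284 by limma) and was the only relative called, against 1.34% of all genes in either direction and 0.577% as lower. The call was lost when any 1 of these arrays other than KO 1 or WT 4 was left out (adjusted p up to 0.145, without WT 3), while the difference stayed between −0.49 and −0.38 in all 17 alternatives. With high-Y arrays alone it was −0.45 with an adjusted p of 0.0695.

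In parietal tissue the Neurod6 groups overlapped. KO arrays gave 11.29, 11.72, 11.26 and 11.25 and WT arrays 11.37, 11.66, 11.99 and 11.73, and KO 2 stood above the other KO arrays. The difference of −0.31 (SE 0.104, unadjusted p = 0.00622) had an adjusted p of 0.181 (limma), and none of the 5 relatives was called against 1.81% of all genes. Without KO parietal 2 it was −0.42 (adjusted p = 0.0161), and without WT parietal 1 −0.42 (adjusted p = 0.0265). The parietal and occipital differences were not tested against each other.

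Over the 3 regions Neurod6 averaged 11.33, 11.38, 11.24 and 11.28 in KO and 11.61, 11.73, 11.83 and 11.66 in WT. The groups did not overlap, as for 5.31% of all genes in this direction, and the difference of −0.40 (SE 0.0497, 1.32-fold, 95% interval −0.51 to −0.29) had an adjusted p of 0.000139 (limma). This was 1 call among 5 relatives, against 7.46% of all genes in either direction and 2.75% as lower. The call held in all 16 alternatives fitted for it, the Y-linked covariate included, with differences between −0.45 and −0.36.

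Neurod2, which acts with Neurod6 in the same neurons, was not called in any KO against WT comparison. Its log2 signals in frontal tissue were 10.15, 10.32, 10.22 and 10.18 in KO and 10.22, 10.18, 10.36 and 10.14 in WT arrays, which intermixed. The difference was −0.01 (95% interval −0.14 to 0.13, adjusted p = 0.936), and in parietal and occipital tissue it was 0.07 (adjusted p = 0.92) and 0.06 (adjusted p = 0.813). Over the regions it was 0.04 (SE 0.0492, 95% interval −0.07 to 0.14), an interval that excludes a fall of the size measured for Neurod6. The difference between the 2 genes was not itself tested.

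The proneural genes passed no test at P0.5. Neurog2 spanned 7.28 to 7.96 over the 24 arrays and differed by 0.14 (adjusted p = 0.428), −0.10 (0.951) and −0.14 (0.722) in frontal, parietal and occipital tissue. Neurog1 spanned 6.31 to 6.90, lay among the dimmest 30% of genes, and differed by −0.10 (adjusted p = 0.536), −0.03 (0.994) and 0.07 (0.844). Over the regions the intervals were −0.15 to 0.09 for Neurog2 and −0.12 to 0.09 for Neurog1, so a change of the size seen for Neurod1 would lie far outside both.

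Neurod4, also among the dimmest 30%, gave its largest difference in parietal tissue. KO arrays were at 5.13, 5.76, 5.28 and 5.13 and WT arrays at 5.80, 5.55, 6.18 and 5.48. The groups overlapped through KO 2, and the difference of −0.43 (SE 0.162) had an unadjusted p of 0.0139 and an adjusted p of 0.287 (limma). In frontal and occipital tissue it differed by −0.08 (adjusted p = 0.749) and 0.18 (adjusted p = 0.746), so the sign was not the same in every region.

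**Figure D3:**
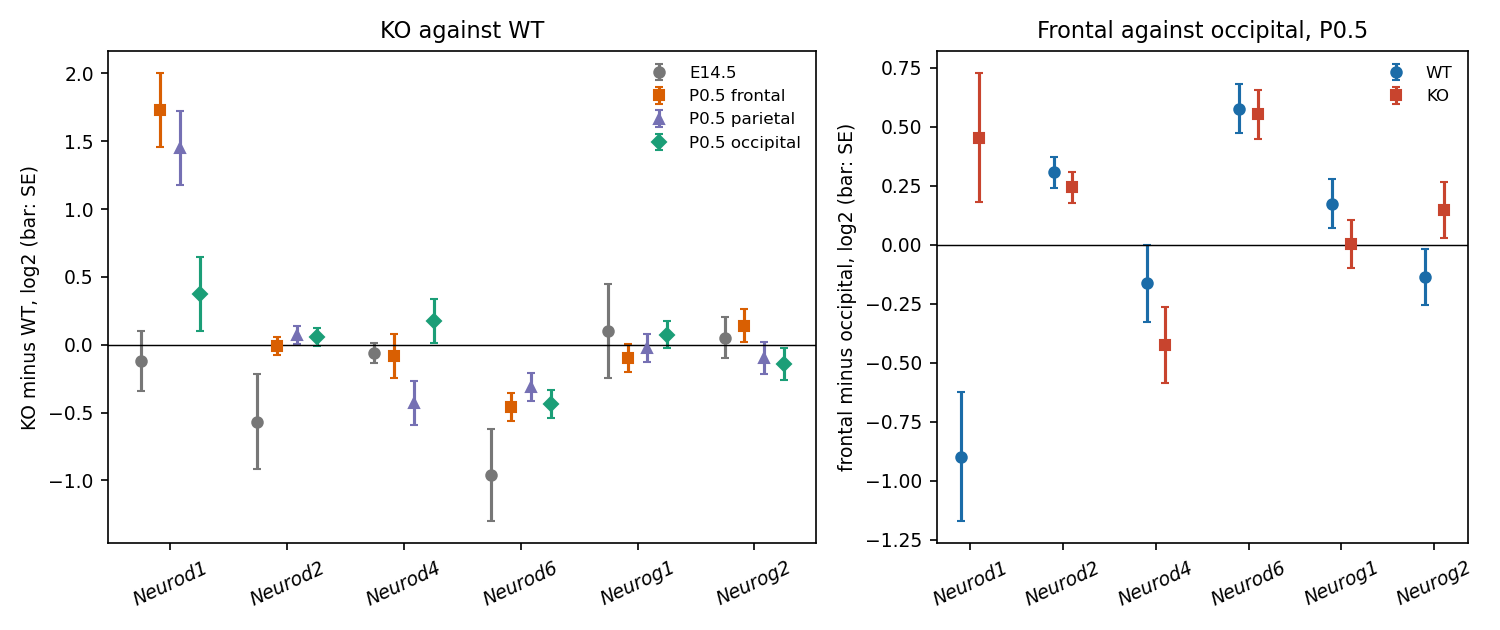
Differences in log2 signal with SE bars for the 6 members, KO minus WT at E14.5 and in the 3 P0.5 regions on the left, and frontal minus occipital within WT and KO at P0.5 on the right. Neurod1 lies at 1.73 and 1.45 in frontal and parietal tissue against 0.38 in occipital tissue, while Neurod6 is below 0 at every point on the left and at 0.58 and 0.55 on the right.

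The members also differed between regions. In WT tissue Neurod6 was highest frontally, with 11.93 to 12.09 in frontal and 11.26 to 11.57 in occipital arrays and no overlap. The difference of 0.58 (SE 0.104, 1.49-fold) had an adjusted p of 0.00121 (limma) and was number 81 of 19938 from the top. Of all genes, 6.21% were higher frontally with no overlap. Neurod2 followed with 10.14 to 10.36 frontally and 9.80 to 10.01 occipitally, also with no overlap, a difference of 0.31 (SE 0.0659, adjusted p = 0.00619). These were 2 of 5 relatives, against 6.03% of all genes called in either direction and 2.26% as higher frontally. With only the WT frontal and occipital arrays in the fit, the adjusted p of Neurod2 was 0.0765.

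In KO tissue the same pair was higher frontally. Neurod6 differed by 0.55 (SE 0.104, adjusted p = 0.00192) and Neurod2 by 0.24 (SE 0.0659, adjusted p = 0.0378), both without overlap. Of all genes, 3.22% were called in either direction, 1.47% were called as higher frontally and 4.8% were higher with no overlap. With the Y-linked mean as a covariate the differences were 0.48 (adjusted p = 0.0702) and 0.29 (adjusted p = 0.0868), and the Neurod2 call was lost when any 1 of these arrays other than KO occipital 2 was left out (adjusted p up to 0.127, without KO frontal 2). The test of the regional difference itself, KO against WT, gave −0.02 for Neurod6 (SE 0.147, 95% interval −0.32 to 0.28, adjusted p = 0.935) and −0.06 for Neurod2 (adjusted p = 0.685). None of the 5 relatives was called in it, against 0.416% of all genes. On simulated data with independent noise it recovered 42 of 100 genes changed by 0.5.

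Neurod1 ran the other way in WT tissue. It averaged 7.56 ± 0.78 (SD, n = 4) frontally, 7.66 ± 0.41 parietally and 8.46 ± 0.43 occipitally, a frontal minus occipital difference of −0.90 that placed it 19892 of 19938 from the top. The frontal and occipital WT groups overlapped through WT frontal 1. In KO tissue the means were 9.29 ± 0.15, 9.11 ± 0.32 and 8.84 ± 0.39, a difference of 0.45 with overlapping groups. The change in the regional difference was 1.35 (SE 0.386), given as a description. Ordered by mean level, all 3 KO groups stood above all 3 WT groups, and each group overlapped its neighbour in that order.

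For Neurod6 the order was WT frontal at 12.01, WT parietal at 11.69, KO frontal at 11.55, WT occipital at 11.43, KO parietal at 11.38 and KO occipital at 10.99. Only KO occipital stood clear of its neighbour in the order. For Neurod2 the 4 frontal and parietal groups lay between 10.16 and 10.23 and the occipital groups at 9.97 and 9.92, and each group overlapped the next.

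**Figure D4:**
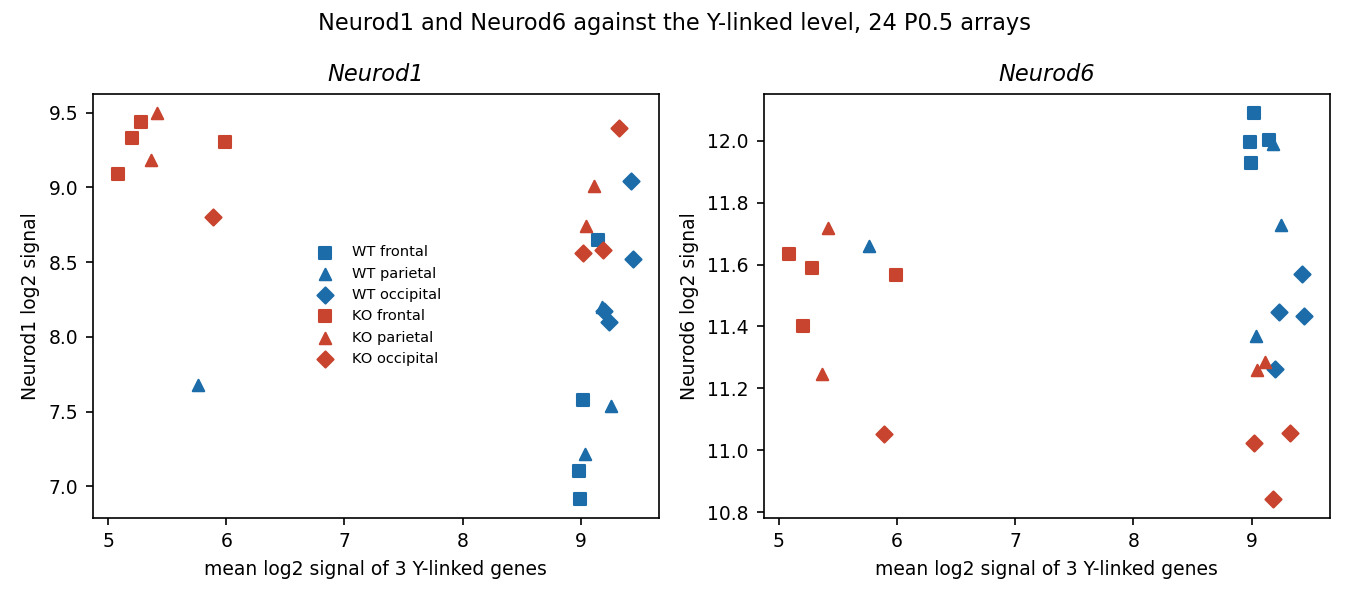
Log2 signal of Neurod1 (left) and Neurod6 (right) in the 24 P0.5 arrays against the mean log2 signal of 3 Y-linked genes, squares frontal, triangles parietal and diamonds occipital, KO in red and WT in blue. KO frontal arrays lie at 5.09 to 5.99 and WT frontal arrays at 8.99 to 9.15 on the horizontal axis, and in parietal tissue each genotype has arrays on both sides.

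Genes that act with the bHLH factors were taken from lists of 53 genes, of which 51 were measured. Over the P0.5 regions 2 of them rose and 3 fell in KO, 9.80% against 7.46% of all genes, and the median difference of the 51 was −0.01, as it was over all genes. In frontal tissue 1 rose and 4 fell (9.80% against 7.52% of all genes), in parietal tissue 2 rose and 1 fell (5.88% against 1.81%), and in occipital tissue none was called (against 1.34%).

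None of the 3 E proteins, the dimer partners, and none of the 4 Id proteins, which hold E proteins in inactive dimers, was called between KO and WT in any P0.5 region or over the regions. At E14.5 the 4 Id genes had a list mean of at least 9.65 in KO and at most 9.36 in WT arrays, with no overlap. How many genes or lists of that stage were higher in KO with no overlap is not given here. Id3 differed by 1.31 (SE 0.245) and Id1 by 0.92 (SE 0.291), both with an adjusted p of 0.85, and Tcf4, an E protein, by −0.89 (adjusted p = 0.85). None of these E14.5 differences was called. The meningeal, thalamic and microglial markers given above were higher in the same KO arrays, and their part in the Id values was not tested.

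Of the 9 Notch ligands, receptors and modifiers, none was called between KO and WT at P0.5. Among the 6 Hes and Hey repressors, Hes1 rose by 0.32 over the regions (SE 0.0646, adjusted p = 0.00655) and by 0.47 in parietal tissue (adjusted p = 0.0281). With the Y-linked covariate the differences were 0.29 (adjusted p = 0.0605) and 0.45 (0.0609), and the parietal call was lost when any 1 parietal array other than KO 3 or WT 3 was left out (up to 0.107, without KO 2). Hes1 is also a radial glia gene. Over the regions 5 of 8 radial glia markers, all 3 astrocyte markers and 3 of 4 microglia markers were called higher in KO, against 4.71% of all genes, and none of these lists had a member called lower. Their part in the Hes1 and Neurod1 results was not tested.

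Among the 13 other neural bHLH genes measured, 2 fell in KO and none rose over the regions, where 2.75% of all genes were called as lower. Bhlhe40, a bHLH repressor that responds to neuronal activity and the clock, had log2 signals of 7.39, 7.02, 7.29 and 7.49 in KO frontal and 8.73, 8.84, 8.06 and 8.24 in WT frontal arrays. The WT frontal arrays stood above all others: the arrays of every other P0.5 group lay between 7.02 and 7.71. It fell by 1.17 in frontal tissue (SE 0.128, adjusted p = 1e-06), was 1.26 higher in frontal than occipital tissue of WT (adjusted p = 6.42e-07), and gave an interaction of −1.39 (SE 0.181, adjusted p = 0.00027). Each of these calls held in every alternative fitted. With the Y-linked covariate, which cannot separate sex from genotype in frontal tissue, the frontal difference was −1.16 (adjusted p = 0.000546, limma).

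Nhlh2, a bHLH gene of Cajal-Retzius cells among others, fell by 0.49 over the regions (SE 0.0539, adjusted p = 5.13e-05) and by 0.65 in frontal tissue (adjusted p = 0.00277; with the Y-linked covariate −0.58, adjusted p = 0.158). Its KO frontal arrays lay at 6.27 to 6.67 and its WT frontal arrays at 7.01 to 7.41. It is itself 1 of the 5 Cajal-Retzius markers, 4 of which were called lower in KO over the regions, against 2.75% of all genes. The share of that cell type in its fall was not tested.

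Of 11 genes known as targets of proneural factors, Runx1t1, a transcriptional co-repressor that Neurog2 can induce, was the only one called between KO and WT. In parietal tissue it was at 10.81, 10.92, 10.97 and 10.75 in KO and at 10.25, 10.21, 10.36 and 10.12 in WT arrays, with no overlap. It rose by 0.63 there (SE 0.0926, adjusted p = 0.000138), by 0.45 in frontal tissue (adjusted p = 0.00282; with the Y-linked covariate 0.47, adjusted p = 0.076) and by 0.43 over the regions (adjusted p = 4.62e-05). The other 10 targets, Eomes, Insm1 and Rnd2 among them, were not called between KO and WT in any P0.5 region.

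Among 5 measured partners and targets of Bhlhe22, Neurod2 and Neurod6, the adhesion molecule Cntn2 fell. Its frontal log2 signals were 9.90, 9.99, 10.15 and 9.83 in KO and 10.74, 10.72, 11.26 and 10.64 in WT arrays, with no overlap. It fell by 0.87 in frontal (SE 0.14, adjusted p = 0.000163), by 0.71 in parietal (adjusted p = 0.00367) and by 0.62 over the regions (SE 0.0756, adjusted p = 0.000125). With the Y-linked covariate, which cannot separate sex from genotype there, the frontal difference was −0.87 (adjusted p = 0.018, limma). With high-Y arrays alone the parietal adjusted p was 0.269, while the parietal difference stayed between −0.82 and −0.63 in all 17 alternatives. Robo1, a Slit receptor of growing axons, fell by 0.43 in frontal tissue (SE 0.105, adjusted p = 0.0114; with the Y-linked covariate −0.51, adjusted p = 0.0913). Prdm8, which forms a repressor complex with Bhlhe22, differed by −0.18 over the regions (adjusted p = 0.218).

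Between regions the lists moved too. In WT tissue 5 of the 51 genes were higher frontally and 4 lower, 17.6% against 6.03% of all genes, and Nrp1, a semaphorin receptor, differed by −0.78 (adjusted p = 0.00672, or 0.0624 with only the arrays compared). In KO tissue none was higher frontally and 8 were lower, 15.7% against 3.22% of all genes. The 8 included Dll1 (−0.35, adjusted p = 0.00525) and Notch1 (−0.47, adjusted p = 0.00923), and all 8 adjusted p-values were above 0.05 with the Y-linked covariate. The differences themselves stayed negative there, at −0.35 for Dll1, −0.42 for Notch1 and −0.72 to −0.28 over the 8. Whether these counts differ between KO and WT was not tested beyond the interaction, in which only Bhlhe40 was called.

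Cell type markers that could carry Neurod1 or Neurod6 were read beside them. Intermediate progenitors are the cells best known for Neurod1, and none of their 5 markers was called between KO and WT over the regions. Their mean was 7.59 to 8.14 in KO and 7.64 to 8.32 in WT frontal arrays, and 7.94 to 8.44 in KO and 8.10 to 8.60 in WT parietal arrays, and the groups overlapped in both regions. None of 3 hippocampal and dentate markers and none of 3 cerebellar and midbrain markers was called either. Of the 4 cortical glutamatergic markers 1 was called higher over the regions, their differences ran from −0.08 to 0.18, and their mean lay between 8.81 and 9.27 in the 24 arrays. The part of cell composition in the Neurod1 and Neurod6 differences was not tested.

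Neurod1 and its relatives did not share a pattern over the 24 P0.5 arrays. The Pearson correlation with Neurod1 was −0.42 for Neurod6, −0.44 for Neurog1, −0.06 for Neurod2, −0.05 for Neurod4 and 0.29 for Neurog2. After subtracting each group's mean it was 0.53 for Neurod6 (place 2205 of 19937 genes) and 0.61 for Neurog2 (place 1017). It was 0.39 for Neurod4, −0.05 for Neurod2 and −0.63 for Neurog1. Neurod6 thus ran against Neurod1 between the groups and, like many other genes, with it within them. Without that subtraction, the correlation of Neurod6 with Neurod1 was −0.25 over the WT arrays and 0.71 over the KO arrays. These are descriptions over arrays that share groups and, possibly, animals.

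The 10 genes whose level followed Neurod1 most closely over the 24 arrays had correlations of 0.86 to 0.90. They were Pcdh8, Fstl5, Ghitm, Nsfl1c, Psmd12, Psmd7, Zfand2a, Gsr, Ubxn4 and Hibadh. Pcdh8 encodes a protocadherin and Fstl5 a secreted follistatin-like protein, and Psmd12 and Psmd7 are subunits of the proteasome cap. Fstl5 was also first by the deviations from the group means (0.89), followed by Rnf113a2 (0.84), Cap1 (0.84), C1ql3 (0.83) and Cdc16 (0.83), and it was the only one of the 10 also among the top 10 within WT arrays. None of them was in the top 10 within KO arrays.

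Fstl5 shows what that likeness looked like. Fstl5 and Pcdh8 were picked by their correlation with Neurod1 over these same arrays, so a like pattern follows from the choice. Fstl5 was at 9.26, 9.40, 9.30 and 9.54 in KO frontal and 8.77, 8.60, 8.04 and 7.97 in WT frontal arrays, higher in KO with no overlap. In occipital tissue it was at 8.92, 8.67, 8.58 and 8.56 in KO and 8.51, 8.66, 9.03 and 8.61 in WT arrays, which intermixed. As for Neurod1, its KO minus WT difference was larger frontally (1.03) than occipitally (−0.02), and WT occipital 3 was the highest WT occipital array for both. For Pcdh8 these differences were 0.81 and 0.11.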

How the data were processed

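The authors deposited log2 probe set signals, 1 table per stage. Per the submitters' processing notes these were made with Affymetrix Expression Console 1.1 and RMA; the genome build and further settings are not given in the sources used here. The labels name 1 array type for all samples, but the E14.5 probe set names are those of an older design with probes near the 3' end, which is why each stage had its own fit and no level is set against one of the other stage. Depth does not apply to arrays, and their number limits the precision.

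Probe sets naming exactly 1 gene were kept (34958 of 45101 at E14.5, 21789 of 35557 at P0.5), and the brightest per gene was used, giving 18194 and 19938 genes. The test was that of limma 3.58.1 (R 4.3.3; lmFit, then eBayes with an intensity trend), two-sided. The call threshold was 0.05 after Benjamini-Hochberg adjustment across every gene of the comparison. The regional P0.5 contrasts came from 1 fit of 24 arrays in 6 groups. For KO against WT over regions, values sharing a genotype and a number were averaged over the 3 regions, giving 4 against 4. The fits were tested on simulated data with independent normal noise of each gene's spread, so correlation between arrays or genes was not simulated.

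The members, gene lists and alternatives were chosen with earlier results of these data known. Named genes are the members, Tbr1, up to 3 genes of each list by p in a comparison, and the genes most correlated with Neurod1. At E14.5 same-numbered KO and WT arrays had correlated deviations (0.125 to 0.445, all 3 above 0.1 and each highest with its own number), so the numbers may pair the samples. At P0.5 same-numbered KO and WT arrays had −0.47 to 0.22 in frontal, −0.21 to 0.35 in parietal and −0.01 to 0.15 in occipital tissue. Between frontal and occipital tissue, same-numbered arrays had 0.06 to 0.39 in WT, 3 of 4 above 0.1, and −0.20 to 0.21 in KO. The main regional fits treated these arrays as independent. A Pearson correlation and a count of genes are descriptions. Promoter windows were taken from RefSeq (GRCm38.p6) by symbol, with all 6 measured members matched.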

Additional observations from a re-analysis of the deposited data

Results flagged for a closer look

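In 2 of 36 sets of 4 P0.5 arrays (6 members in 6 groups), 1 array stood apart from the other 3 by Dixon's test of the gap over the range, and chance alone marks about 1 set in 20. Both concern Neurod6 and KO replicate 2. In KO parietal tissue replicate 2 was at 11.72 and the other arrays at 11.25 to 11.29. In KO occipital tissue replicate 2 was at 10.84 and the others at 11.02 to 11.06. It was thus the highest parietal and the lowest occipital KO array.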

How the results depend on the processing

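Over all alternatives, 789 member values were recomputed: 735 kept their sign and side of the threshold and 31 changed sign, 0 of them values that had been called. No alternative changed the sign of a Neurod6 difference between KO and WT. Of 36 calls of pathway genes and Tbr1, 13 held in every alternative. The causes of the changes below were not tested.

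Relatives called in frontal tissue went from 1 to 0 with the Y-linked covariate, in parietal tissue from 0 to 2 with array weights (Neurod6 and Neurod4), and in occipital tissue from 1 to 0 with high-Y arrays alone, a setting added after the data were seen. For frontal against occipital tissue they went from 2 to 1 in WT with only the arrays compared, and in KO from 2 to 1 without the intensity trend and to 0 with the Y-linked covariate. Leaving out 1 array gave 0 to 1 calls in parietal and in occipital tissue and 1 to 2 for KO frontal against occipital tissue.

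Sign changes concerned differences near 0. With the Y-linked covariate the values were 0.054 for Neurod2 and 0.065 for Neurod4 in frontal tissue, and 0.00072 in parietal tissue and 0.032 over the regions for Neurog1. With array weights Neurog1 gave −0.25 at E14.5, 0.0011 in parietal tissue, 0.010 over the regions and −0.018 for KO frontal minus occipital, and with high-Y arrays alone 0.13 in parietal tissue. With array medians subtracted, Neurod2 gave 0.017 in frontal tissue and Neurod6 0.024 in the interaction, and the mean of its probe sets gave 0.011 for Neurod4 at E14.5. Leaving out 1 array moved Neurod1 at E14.5 from −0.29 to 0.051, Neurod2 in frontal tissue from −0.043 to 0.036, and the Neurod6 interaction from −0.073 to 0.031. It moved Neurog1 from −0.30 to 0.36 at E14.5, from −0.11 to 0.049 in parietal tissue, from −0.038 to 0.017 over the regions and from −0.054 to 0.056 for KO frontal minus occipital. It moved Neurog2 from −0.086 to 0.15 at E14.5, from −0.19 to 0.014 in parietal tissue and from −0.064 to 0.0018 over the regions.

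With the replicate number as a block, which may pair the samples at E14.5, no member's call changed: Neurod6 had an adjusted p of 0.568 at E14.5 and, at P0.5, of 0.00953 in frontal, 0.207 in parietal and 0.0392 in occipital tissue and 0.000942 over the regions. At P0.5 this block joined same-numbered arrays of both genotypes, and sharing of animals between regions within a genotype was not fitted. Counts over all genes moved more. Array weights called 2606 genes in frontal, 1241 in parietal and 664 in occipital tissue, 1549 for KO frontal against occipital and 530 in the interaction. The Y-linked covariate called 247 in frontal tissue, 824 over the regions, 247 for KO frontal against occipital and 12 in the interaction. With only the arrays compared, 687 were called in frontal tissue, 287 for WT frontal against occipital and 32 in the interaction, and with high-Y arrays alone 79 in parietal and 98 in occipital tissue. Leaving out 1 array gave 0 to 30 genes at E14.5, 749 (without KO frontal 4) to 2454 (without WT frontal 1) in frontal, 237 to 357 in parietal and 122 (without WT occipital 2) to 358 in occipital tissue, 963 (without KO 1) to 1494 over the regions, 441 (without WT occipital 2) to 1917 (without WT frontal 1) for WT frontal against occipital, 441 to 540 for KO frontal against occipital and 29 (without KO frontal 4) to 187 (without WT occipital 1) in the interaction, so the shares of all genes called move with single arrays. Neurod4 at both stages and Neurog1 at P0.5 have no value without the dimmest 30% of genes.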
